A study of Mus musculus with 15 samples.

Results

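Cells of the mouse small intestine that the authors' cell table calls stem were compared between the proximal and the distal end of the organ, within the same animals. The call was met by 3920 of the 14547 small intestine cells, 2036 proximal and 1884 distal, in a series of 18919 cells that also holds colon. It equalled at least 1 unique molecular identifier (UMI, a tag that counts an RNA molecule once) of Lgr5 or eGFP in every cell, so Lgr5 itself is no finding here and the cells are named stem-called. All 5 mice carried the Lgr5-eGFP-IRES-CreERT2 allele, in which the promoter of the crypt stem cell gene Lgr5 drives a green fluorescent protein and an inducible recombinase. They were 6 months old. The proximal and the distal sample of each mouse came from 3 animals on a high fat diet, with 60% of calories from fat, and from 2 animals on a control diet matched for sucrose, with 10% of calories from fat. Libraries were made by Seq-Well with second strand synthesis, which captures single cells with barcoded beads in arrays of small wells. The cell table gives the control animals the numbers 1 and 3, whereas the sample titles use 1 and 2, and its animal 3 was matched to the remaining title, number 2.

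Absorption is divided along the small intestine. The duodenum and jejunum take up iron, sugars and most fat, and the ileum takes back bile acids and vitamin B12 and holds more Paneth cells, which sit beside the stem cells and release antimicrobial peptides. Transcription factors of the GATA, ONECUT, CDX and HOX families set and keep these regional identities, and stem cells pass them on to the enterocytes they give rise to.

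The stem-called cells of 1 library numbered 207 to 617 in the proximal and 231 to 565 in the distal small intestine, and their summed counts ran from 1607657 to 13694552 UMIs. The median per cell was 6870.0 to 19819.0 UMIs in proximal and 5956.0 to 21098.0 UMIs in distal libraries (exact sign-flip permutation test over 5 mice, two-sided, p = 0.75, where the smallest p possible is 0.0625). The call was carried by 17.4% to 36.8% of proximal and 21.4% to 35.8% of distal cells (p = 0.4375, exact). Olfm4, a secreted glycoprotein of crypt base cells, averaged 4818 ± 457 CPM in proximal and 4880.2 ± 1215 CPM in distal cells, and Epcam, a surface protein of epithelial cells, averaged 1519 ± 168 CPM in proximal and 1557 ± 171 CPM in distal cells (SD, n = 5 each, here and for all averages below), and neither was called. Markers of other epithelial cells were present, and some moved with region. The summed level of 15 enterocyte markers was 2406 to 4067 CPM (counts per library scaled to a common size) in proximal and 852.1 to 1439 CPM in distal sums. That of 10 measured Paneth cell markers was 137.3 to 1492 CPM against 1923 to 17839.7 CPM, and that of 10 measured goblet cell markers was 389.8 to 1714 CPM against 1857 to 6044 CPM (p = 0.0625 for each, exact). Enteroendocrine markers summed to 110.2 to 412.0 CPM against 193.5 to 955.5 CPM (p = 0.375) and tuft cell markers to 68.1 to 141.0 CPM against 21.9 to 260.1 CPM (p = 0.9375, both exact). Markers of T and B cells, 22 of them measured, summed to 91.5 to 298.3 CPM against 74.3 to 189.4 CPM. Cells with at least 0.5% of their UMIs from the markers of another type were called marked. In the proximal library of high fat mouse 1, 36.7% of stem-called cells were marked by enterocyte genes, against 5.45% to 9.60% in the other proximal and 0% to 2.83% in the distal libraries, and in the distal library of high fat mouse 3, 12.8% were marked by Paneth cell genes. For markers of these types that are named below and for most lists, values without all marked cells are given as well. In the 10 libraries, 12 cell barcodes occurred more than once.

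Counts were summed per mouse and region, and the proximal and distal sums of each mouse were compared in edgeR's quasi-likelihood F test with the mouse as a block. Fold changes are proximal over distal, and p-values were adjusted by the method of Benjamini and Hochberg over all 11113 genes tested, with 0.05 as the threshold. Summed counts cannot tell fewer cells of a type from less RNA per cell. Of these genes, 1395 (12.6%) were called, 599 (5.39%) higher and 796 (7.16%) lower in proximal cells. The genes lower in proximal cells differed by more, with a median size of 0.90 on the log2 scale against 0.57 for those that were higher. Among the called genes, 145 higher and 356 lower ones differed by at least 2-fold, and 51 and 145 by at least 4-fold. The direction was the same in each of the 5 mice for 574 of the 599 higher and 729 of the 796 lower genes. These genes were selected in the same mice, which favours such agreement, so it is no separate support. The ranges of the 5 proximal and 5 distal sums did not overlap for 672 genes (6.05%), 273 higher (2.46%) and 399 lower (3.59%). Without all marked cells, 596 of 10781 tested genes were called higher and 729 lower over 5 mice. In that set 463 were higher and 496 lower in high fat mice, and 263 and 442 in control mice.

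In the 3 high fat mice 432 genes (3.89%) were called higher and 543 (4.89%) lower, 8.77% of tested genes in all. In the 2 control mice 186 (1.67%) were higher and 385 (3.46%) lower, or 5.14%, from one model with a shared estimate of the spread. Of the 599 higher genes, 137 were called in both diets, 224 in high fat mice alone, 35 in control mice alone and 203 in neither. Of the 796 lower genes, 276 were called in both diets, 215 in high fat mice alone, 84 in control mice alone and 221 in neither. None of the 1395 had opposite signs in the diets, but they were selected over the same mice of both diets, which favours equal signs. A call in 1 diet alone does not show that the diets differ, and the test of the difference itself called 21 genes (0.189%), which are described at the end. The count for control mice fell when either of the 2 was left out, which leaves 1 animal of that diet. Leaving out high fat mouse 3, which changes the shared spread, gave 379 and 635 for the control mice. In high fat mice the counts were 249 and 332 without high fat mouse 2. The plot of the fold changes in each diet shows both sets of calls.

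**Figure D1:**
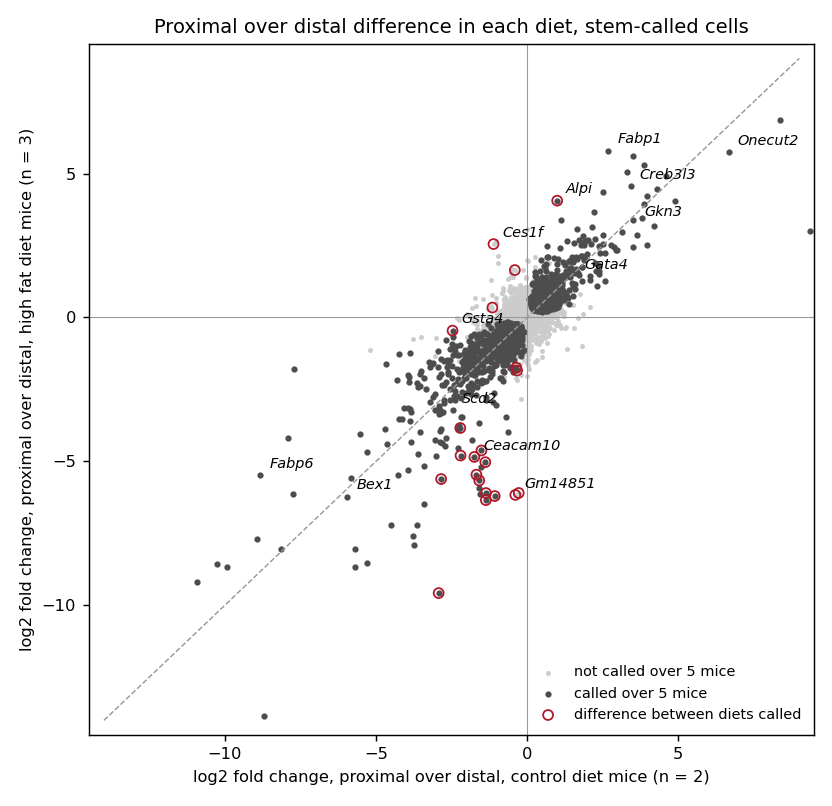
Each point is 1 of 11113 genes in stem-called cells, with the log2 fold change of proximal over distal in control mice on the x axis and in high fat mice on the y axis. Dark points are the 1395 genes called over 5 mice and red rings the 21 genes called for a difference between diets; most dark points lie near the dashed line of equal change, and genes with sums at 0 are included, whose fitted values are no bound.

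Transcription factors of regional identity were split between the ends. Of 33 tested factors of 56 on the list, 5 were higher and 14 lower in proximal cells, 6 of the lower ones HOX genes described below, with a median log2 fold change of -0.13 against 0.014 over all genes. High fat mice gave 6 higher and 13 lower factors, control mice 5 and 13, and no factor was called for a difference between diets. Without the marked cells the counts were 5 and 12 of 31. For this and the lists below, all tested genes gave 5.39% higher and 7.16% lower over 5 mice. In high fat mice the shares of all genes were 3.89% and 4.89%, and in control mice 1.67% and 3.46%. The 5 higher factors were Onecut2, Gata4, Pdx1, Creb3l3 and Meis2. Of these, Pdx1, Meis2 and Creb3l3 had distal means of 0.075, 0.173 and 1.65 CPM. They passed the filter on low counts through their proximal level and had to differ in this direction. Gata4, Meis2, Gata5, Cdx1, Klf4, Foxa1, Tfcp2l1, Hoxb4, Hoxb5 and Hoxb8 were chosen for naming after their values were seen.

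Onecut2, a homeodomain factor of the proximal small intestine (chromosome 18, 64340020 to 64400987), had 141, 226 and 211 CPM in high fat and 174 and 284 CPM in control mice in proximal cells. Distal cells had 3.16, 4.64 and 3.37 CPM in high fat and 1.15 and 2.91 CPM in control mice. Every proximal sum was above every distal one. The difference held in both diets, at 5.75 in high fat (adjusted p = 2.14e-09) and 6.66 in control mice (adjusted p = 6.68e-09), with all 5 mice giving the same direction (log2 fold change 6.13, SE 0.17, adjusted p = 2.26e-08). RNA carried over from other cells was measured in 34 proximal and 149 distal T and B cells. They were marked by T and B cell genes, had UMIs of at least 4 of these genes and at most 0.02% of UMIs from Epcam, and lacked the stem call. In them Onecut2 stood at 4.099 CPM in proximal and 9.24 CPM in distal cells. These pooled counts rest on 243963 proximal and 649511 distal UMIs. Gata4, a zinc finger factor known for keeping jejunal identity (chromosome 14, 63198922 to 63271692), had 115, 147 and 152 CPM in high fat and 128 and 120.1 CPM in control mice in proximal cells. Distal cells had 26.2, 18.6 and 26.6 CPM in high fat and 14.9 and 29.3 CPM in control mice. Distal cells kept a measurable level in all 5 mice, and the ranges did not overlap (log2 fold change 2.44, SE 0.14, adjusted p = 3.37e-06). The diets gave 2.48 in high fat (adjusted p = 4.91e-06) and 2.37 in control mice (adjusted p = 6.70e-05).

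Pdx1, the homeodomain factor of the duodenum and pancreas (chromosome 5, 147269959 to 147275848), had 18.1, 14.03 and 26.4 CPM in high fat and 22.8 and 29.4 CPM in control mice in the proximal small intestine, and was listed at 0 in 3 of 5 distal sums, with 0.298 and 0.077 CPM in high fat mouse 3 and control mouse 2 (adjusted p = 7.81e-07; adjusted p = 1.65e-06 in high fat and 5.46e-06 in control mice). Apart from 1 difference between diets, no fold is given in the text for a gene with a sum at 0, because rarely seen genes look to have been removed from each library before deposit, so that a 0 sets no limit. Creb3l3, a membrane-bound factor of lipid metabolism (chromosome 10, 81084324 to 81098874), had 132, 130.3 and 82.2 CPM in high fat and 5.57 and 4.61 CPM in control mice in the proximal and 2.53, 1.33 and 3.87 CPM in high fat and 0 and 0.536 CPM in control mice in the distal small intestine (adjusted p = 3.37e-06; adjusted p = 2.39e-07 in high fat and 0.00434 in control mice). The 3 high fat sums lay above the 2 control sums in each region, and proximal exceeded distal within each of the 5 mice. Meis2, a homeodomain cofactor of HOX proteins, averaged 5.55 ± 1.35 CPM in proximal and 0.173 ± 0.276 CPM in distal cells and was listed at 0 in 3 distal sums (adjusted p = 0.00013).

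The 6 HOX genes that passed the filter on low counts were neighbours in the Hoxb cluster on chromosome 11, between 96271457 and 96321638 (GRCm38), and were lower in proximal cells. Their proximal means were 0 to 0.925 CPM, so they passed the filter through their distal level and had to differ in this direction. Hoxb9 and Hoxb8 were listed at 0 in every proximal sum. Hoxb9 had 12.03, 10.6 and 11.2 CPM in high fat and 57.4 and 23.8 CPM in control mice in the distal small intestine, and Hoxb8 had 8.65, 7.29 and 6.55 CPM in high fat and 32.1 and 17.8 CPM in control mice (adjusted p = 4.17e-05 and 8.92e-05). Hoxb7 averaged 0.145 ± 0.251 CPM in proximal and 11.5 ± 5.46 CPM in distal cells, Hoxb6 averaged 0.2695 ± 0.298 CPM in proximal and 15.4 ± 11.6 CPM in distal cells and Hoxb5 averaged 0.116 ± 0.2596 CPM in proximal and 3.88 ± 1.79 CPM in distal cells, each with proximal sums at 0. Hoxb4, at the other end of the tested stretch, had a count in every sum, at 0.925 ± 0.704 CPM in proximal and 6.04 ± 3.75 CPM in distal cells (log2 fold change -2.55, SE 0.34, adjusted p = 0.000594).

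Other distal factors differed by less. Osr2, a zinc finger factor, averaged 15.3 ± 3.17 CPM in proximal and 57.1 ± 12.98 CPM in distal cells (log2 fold change -1.89, SE 0.13, adjusted p = 9.10e-06), with -2.01 in high fat (adjusted p = 1.69e-05) and -1.76 in control mice (adjusted p = 0.000163). Foxa1, a pioneer factor of endoderm, averaged 25.9 ± 2.15 CPM in proximal and 48.9 ± 9.89 CPM in distal cells (log2 fold change -0.91, SE 0.1, adjusted p = 0.000186), and Gata5 had a log2 fold change of -0.65 (adjusted p = 0.000626), opposite in sign to its relative Gata4. Cdx1, a caudal-type factor of intestinal identity, had a log2 fold change of -0.38 (adjusted p = 0.0125), and its adjusted p reached 0.0536 when control mouse 1 or control mouse 2 was left out. The list genes Klf4 and Tfcp2l1, at -0.696 and -1.31 on the log2 scale (adjusted p = 0.00063 and 0.000343), were lower as well. Klf4, which goblet cells express, was at -0.27 (adjusted p = 0.189) without the marked cells and no longer called.

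**Figure D2:**
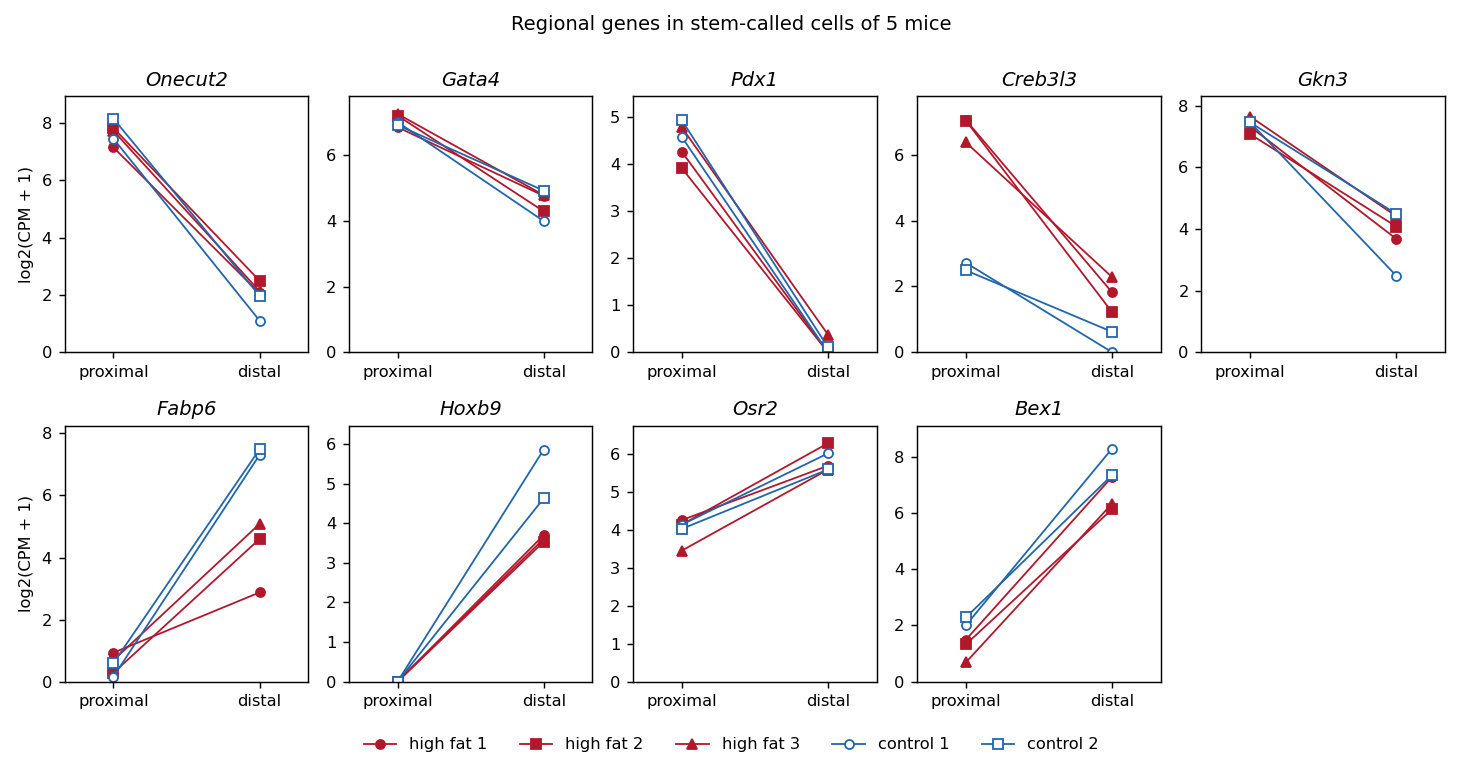
Level of 9 regional genes in stem-called cells as log2 of CPM plus 1, in the proximal and distal small intestine, with 1 line for each of the 5 mice (filled red, high fat; open blue, control). Lines of all mice run the same way in each panel. High fat and control mice lie apart in both regions for Creb3l3 and Bex1, and in distal cells for Fabp6, Hoxb9 and Onecut2. Hoxb9 sits at 0 in all proximal sums.

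Gkn3, a gastrokine that marks stem cells of the proximal crypts (chromosome 6, 87383256 to 87388935), had 159, 134 and 199.9 CPM in high fat and 175 and 175 CPM in control mice in proximal cells. Distal cells had 11.8, 15.9 and 20.3 CPM in high fat and 4.59 and 21.5 CPM in control mice. The lowest proximal sum lay far above the highest distal one (log2 fold change 3.45, SE 0.199, adjusted p = 3.37e-06). Diets gave 3.396 in high fat (adjusted p = 4.26e-06) and 3.503 in control mice (adjusted p = 2.69e-05), and no count of it was seen in the T and B cells of either region. Fabp6, the ileal carrier of bile acids inside the cell (chromosome 11, 43596049 to 43601540), had 0.906, 0.216 and 0.609 CPM in high fat and 0.116 and 0.512 CPM in control mice in proximal cells. Distal cells had 6.33, 23.2 and 32.9 CPM in high fat and 157 and 179 CPM in control mice. All 5 mice were lower in proximal cells (log2 fold change -8.04, SE 0.395, adjusted p = 1.08e-06), and the distal level was spread widely, with both control mice above the 3 high fat mice. Fabp6 passed the filter on low counts through its distal level and had to differ in this direction. The fold changes were -5.47 in high fat (adjusted p = 4.73e-06) and -8.83 in control mice (adjusted p = 1.59e-08), and their difference was not called, at 3.36 (SE 0.97, adjusted p = 0.448). Fabp6 stood at 0 CPM in proximal and 20.02 CPM in distal T and B cells, and at 1.03 ± 0.314 CPM in proximal and 427 ± 312 CPM in distal cells without the stem call (SD, n = 5 each). The level in distal T and B cells pools both diets. In control mice 1 and 2, 18.9% of 37 and 17.6% of 17 such cells held a Fabp6 UMI. In high fat mice 1, 2 and 3 it was 3.85% of 52, 0% of 41 and 0% of 2. The part of carried-over RNA in the distal sums was not tested.

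Genes of bile acid and vitamin B12 handling were lower or not called. Of 7 tested genes of 12 on that list, 3 were lower, none higher, and the median was -0.81. Slc51b, a subunit of the basolateral bile acid exporter, averaged 1.402 ± 0.328 CPM in proximal and 7.14 ± 4.402 CPM in distal cells (log2 fold change -2.504, SE 0.36, adjusted p = 0.00112). It passed the filter on low counts through its distal level and had to differ in this direction. Nr1h4, the nuclear receptor for bile acids, averaged 23.3 ± 7.51 CPM in proximal and 39.1 ± 10.7 CPM in distal cells (log2 fold change -0.81, SE 0.15, adjusted p = 0.00554), and its ranges overlapped between regions although each of the 5 mice was lower in proximal cells. Leaving out the marked cells gave 5 of 7 lower.

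Further genes with large differences follow. Bex1, an X-linked gene of the list of stem cell genes, had 1.81, 1.51 and 0.609 CPM in high fat and 3.02 and 3.88 CPM in control mice in proximal cells. Distal cells had 156, 69.6 and 79.9 CPM in high fat and 315 and 163 CPM in control mice. The ranges did not overlap (log2 fold change -6.02, SE 0.198, adjusted p = 4.33e-08), and both diets were called, at -6.23 in high fat (adjusted p = 1.59e-07) and -5.95 in control mice (adjusted p = 7.15e-08). Its X-linked neighbour Tceal8 averaged 1.51 ± 1.23 CPM in proximal and 42.4 ± 8.602 CPM in distal cells (log2 fold change -4.68, SE 0.27, adjusted p = 3.37e-06). Bex1 and Tceal8 passed the filter on low counts through their distal level and had to differ in this direction. Naaladl1, a peptidase of the ileal brush border, averaged 10.5 ± 1.99 CPM in proximal and 143 ± 37.3 CPM in distal cells (log2 fold change -3.83, SE 0.13, adjusted p = 5.08e-08); the proximal sums ran from 7.17 to 12.07 CPM and the distal sums from 112 to 205 CPM. Abcb1a, a drug efflux pump, averaged 38.4 ± 10.8 CPM in proximal and 151 ± 23.1 CPM in distal cells (log2 fold change -2.02, SE 0.16, adjusted p = 2.41e-05), and T and B cells held it at 184 CPM in proximal and 239 CPM in distal cells. Whether the T and B cells made this RNA themselves or carried it over was not tested. Among the higher genes, Mme, the membrane metallo-endopeptidase neprilysin, averaged 70.8 ± 10.1 CPM in proximal and 3.39 ± 2.55 CPM in distal cells and was listed at 0 in 1 distal sum (adjusted p = 2.10e-05).

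Since a GATA and a ONECUT factor were among the higher genes and bind short DNA motifs, promoters of 10 named genes are shown. Of these, 6 were picked because they hold a match, and Fabp6, Pdx1, Fabp1 and Rdh1 are genes with large differences that hold none. The windows are the RefSeq windows of GRCm38.p6 from 250 bases before to 20 after the start, 5′ to 3′ on the gene's strand, with motif matches in capitals. Both strands were searched. The letters for GATA factors were AGATAA. Those for ONECUT factors were ATCAAT. Those for CDX factors were GCAATAAA. No matches overlapped in the windows shown.
Gkn3, chr6:87388916-87389185, minus strand: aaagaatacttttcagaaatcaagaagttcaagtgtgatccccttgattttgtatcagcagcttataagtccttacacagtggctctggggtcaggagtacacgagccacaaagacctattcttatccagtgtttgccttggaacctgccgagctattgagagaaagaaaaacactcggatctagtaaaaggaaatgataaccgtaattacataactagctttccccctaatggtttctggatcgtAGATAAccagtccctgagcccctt
Creb3l3, chr10:81092572-81092841, minus strand: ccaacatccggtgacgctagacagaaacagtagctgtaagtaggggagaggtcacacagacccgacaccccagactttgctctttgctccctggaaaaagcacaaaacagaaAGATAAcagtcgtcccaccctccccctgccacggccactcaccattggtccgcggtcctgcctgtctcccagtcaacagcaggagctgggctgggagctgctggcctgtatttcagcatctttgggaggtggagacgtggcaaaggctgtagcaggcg
Adh1, chr3:138277335-138277604, plus strand: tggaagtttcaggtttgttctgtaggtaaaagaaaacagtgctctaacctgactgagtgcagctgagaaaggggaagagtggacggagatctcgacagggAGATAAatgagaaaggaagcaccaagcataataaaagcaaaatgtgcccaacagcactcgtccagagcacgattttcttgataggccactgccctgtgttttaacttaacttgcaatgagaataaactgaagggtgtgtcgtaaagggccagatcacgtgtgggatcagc
Fabp6, chr11:43601543-43601812, minus strand: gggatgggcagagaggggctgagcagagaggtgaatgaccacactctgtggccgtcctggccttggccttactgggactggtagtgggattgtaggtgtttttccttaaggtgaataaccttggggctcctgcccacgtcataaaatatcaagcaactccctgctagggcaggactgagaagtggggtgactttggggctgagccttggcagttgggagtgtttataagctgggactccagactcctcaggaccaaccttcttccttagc
Mgam, chr6:40628581-40628850, plus strand: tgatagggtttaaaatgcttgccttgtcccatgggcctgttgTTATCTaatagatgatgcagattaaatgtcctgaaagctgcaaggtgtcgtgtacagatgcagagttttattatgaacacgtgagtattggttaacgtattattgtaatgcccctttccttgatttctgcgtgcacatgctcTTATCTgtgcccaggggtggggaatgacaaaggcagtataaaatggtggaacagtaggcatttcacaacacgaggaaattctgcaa
Bex1, chrX:136215494-136215763, minus strand: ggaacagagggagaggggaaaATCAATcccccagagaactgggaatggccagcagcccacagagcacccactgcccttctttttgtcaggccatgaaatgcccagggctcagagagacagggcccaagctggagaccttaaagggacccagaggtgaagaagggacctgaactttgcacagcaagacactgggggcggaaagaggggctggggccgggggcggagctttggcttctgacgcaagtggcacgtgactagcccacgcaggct
Hoxb8, chr11:96281655-96281924, plus strand: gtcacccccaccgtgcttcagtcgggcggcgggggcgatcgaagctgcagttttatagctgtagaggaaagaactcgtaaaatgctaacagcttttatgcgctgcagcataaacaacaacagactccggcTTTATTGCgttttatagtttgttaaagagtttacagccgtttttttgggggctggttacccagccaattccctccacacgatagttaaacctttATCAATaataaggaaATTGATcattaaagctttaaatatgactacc
Pdx1, chr5:147269847-147270116, plus strand: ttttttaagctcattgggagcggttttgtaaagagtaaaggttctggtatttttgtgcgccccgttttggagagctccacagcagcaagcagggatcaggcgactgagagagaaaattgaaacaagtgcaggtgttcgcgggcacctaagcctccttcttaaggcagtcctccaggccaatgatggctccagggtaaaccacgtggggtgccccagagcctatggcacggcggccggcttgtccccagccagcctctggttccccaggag
Fabp1, chr6:71199629-71199898, plus strand: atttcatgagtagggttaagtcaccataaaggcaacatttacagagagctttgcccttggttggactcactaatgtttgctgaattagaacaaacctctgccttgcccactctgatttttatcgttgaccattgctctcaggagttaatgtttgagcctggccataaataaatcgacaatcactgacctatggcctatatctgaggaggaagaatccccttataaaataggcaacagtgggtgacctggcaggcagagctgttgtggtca
Rdh1, chr10:127759513-127759782, plus strand: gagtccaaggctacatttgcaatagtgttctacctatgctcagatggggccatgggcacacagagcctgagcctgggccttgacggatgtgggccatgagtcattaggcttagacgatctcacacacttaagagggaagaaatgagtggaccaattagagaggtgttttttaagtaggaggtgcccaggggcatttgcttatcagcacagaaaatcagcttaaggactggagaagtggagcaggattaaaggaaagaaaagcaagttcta
Gkn3, Creb3l3 and Adh1, which were higher in proximal cells, each held 1 GATA match, and Mgam, which was lower, held 2. Bex1 held 1 ONECUT match and Hoxb8 2 ONECUT matches and 1 CDX match, while the windows of Fabp6, Pdx1, Fabp1 and Rdh1 held none of the 3 motifs. Of the 16 genes named for the largest changes, 13 had a window that could be shown, and 5 of these held a match. Where RefSeq gives several starts, the first listed was used: Creb3l3 has 2, and its window lies at the downstream one, inside the gene span given above. The RefSeq start of Adh1 also lies inside its GENCODE span. Of all 8372 tested genes with a window, 5.95% held AGATAA, against 9.52% of 462 genes higher and 7.66% of 561 genes lower in proximal cells. ATCAAT was held by 3.88% of all, 2.81% of higher and 5.53% of lower genes, and GCAATAAA by 0.502%, 1.30% and 1.07%. A match is a string of letters and shows no binding.

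Genes of lipid absorption were higher more often than lower in proximal cells. Of 23 tested list genes 9 were higher and 4 lower, with a median log2 fold change of 0.40. The counts were 11 and 3 in high fat mice and 3 and 3 in control mice. Mttp, which loads fat onto apolipoprotein B, had 301, 275 and 248 CPM in high fat and 166 and 164 CPM in control mice in proximal cells. Distal cells had 68.4, 47.1 and 92.2 CPM in high fat and 55.1 and 69.4 CPM in control mice. Every proximal sum was above every distal one, in high fat and in control mice (log2 fold change 1.74, SE 0.16, adjusted p = 7.39e-05; 1.97 in high fat (adjusted p = 2.08e-05) and 1.39 in control mice (adjusted p = 0.00215)), and the value without the marked cells was 1.36 (adjusted p = 1.88e-07). Scarb1, a receptor for high density lipoprotein, averaged 11.8 ± 1.24 CPM in proximal and 3.399 ± 1.39 CPM in distal cells (log2 fold change 2.03, SE 0.26, adjusted p = 0.000453), and Acsl1, which activates long-chain fatty acids, averaged 129.5 ± 19.7 CPM in proximal and 76.5 ± 3.81 CPM in distal cells (log2 fold change 0.74, SE 0.095, adjusted p = 0.000484). Both were called in each diet. Fabp1, the fatty acid carrier of enterocytes, had 1004, 449 and 431 CPM in high fat and 15.9 and 22.2 CPM in control mice in the proximal and 1.899, 4.64 and 23.1 CPM in high fat and 0 and 4.13 CPM in control mice in the distal small intestine (adjusted p = 0.000806). It passed in high fat mice (adjusted p = 5.39e-05) and not in control mice (adjusted p = 0.109), the difference between diets was not called (adjusted p = 0.792), and proximal T and B cells, pooled over both diets, carried 36.9 CPM. Of these cells 60% of 10 in high fat mouse 1 and 0% of 2 in high fat mouse 2 held a Fabp1 UMI. In control mice 1 and 2 it was 0% of 16 and 16.7% of 6. Fabp1 was also called without the marked cells (adjusted p = 2.16e-08). Fabp2, its relative, also named after its values were seen, had a log2 fold change of 0.99 (adjusted p = 0.0251), and its adjusted p reached 0.097 when high fat mouse 1 or 2 was left out. It was at 0.88 (adjusted p = 0.000298) without the marked cells.

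The lower lipid genes were exporters of sterols and a lipase cofactor. Abca1, a cholesterol exporter, averaged 6.28 ± 2.67 CPM in proximal and 21.8 ± 16.2 CPM in distal cells (log2 fold change -1.77, SE 0.27, adjusted p = 0.00135), and Abcg5, a subunit of the sterol pump that returns plant sterols to the lumen, averaged 22.2 ± 7.46 CPM in proximal and 37.4 ± 13.7 CPM in distal cells (log2 fold change -0.75, SE 0.12, adjusted p = 0.00195). Clps, the colipase, is described with the diet differences. Enterocyte markers were also higher in proximal cells, with 12 of 14 tested called higher and none lower, and 10 of 13 higher and 1 lower without the marked cells. The marking used these genes, so their summed level falls by construction. The part of enterocytes in the lipid genes, and in the genes of retinoid, sugar, peptide, xenobiotic and fatty acid metabolism described next, was not tested. In unmarked cells 10 of 22 lipid genes were higher and 3 lower.

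Of 12 genes of retinoid metabolism 5 were higher and none lower, with a median of 0.59. In high fat mice 6 were higher and in control mice 4, and without the marked cells 4 were higher and 1 lower of 11. Adh1, an alcohol dehydrogenase that oxidises retinol, had 242, 189 and 180.2 CPM in high fat and 281 and 108 CPM in control mice in proximal cells. Distal cells had 20.7, 7.96 and 54.3 CPM in high fat and 10.3 and 12.6 CPM in control mice. High fat mouse 3 had the highest distal sum, and no ranges overlapped (log2 fold change 3.2, SE 0.33, adjusted p = 0.00013; 2.87 in high fat (adjusted p = 0.000387) and 3.63 in control mice (adjusted p = 0.000638)). Its relative Adh6a averaged 54.9 ± 15.8 CPM in proximal and 3.31 ± 1.08 CPM in distal cells (log2 fold change 3.9, SE 0.18, adjusted p = 7.81e-07). Rdh7, a retinol dehydrogenase, averaged 26.3 ± 8.04 CPM in proximal and 4.71 ± 2.05 CPM in distal cells (log2 fold change 2.36, SE 0.25, adjusted p = 0.000143), whereas Rdh1, another retinol dehydrogenase that was named for its size, was lower in proximal cells, at 0.794 ± 0.386 CPM in proximal and 24.6 ± 10.05 CPM in distal cells (log2 fold change -5.04, SE 0.27, adjusted p = 2.77e-06). Rbp2, the retinol carrier of the absorptive cell, averaged 21.6 ± 13.4 CPM in proximal and 0.992 ± 1.10 CPM in distal cells and was listed at 0 in 2 distal sums (adjusted p = 0.000385). Rdh1 passed the filter on low counts through its distal level and Rbp2 through its proximal level, so both had to differ in these directions. Without the marked cells Rbp2 did not pass that filter.

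Of 13 tested genes of sugar digestion and metabolism, 4 were higher and 1, a brush border disaccharidase, was lower, and without the marked cells 3 of 12 were higher and 1 lower. Khk, which phosphorylates fructose, had 168, 99.05 and 84.2 CPM in high fat and 218 and 144 CPM in control mice in proximal cells. Distal cells had 56.8, 25.9 and 34.4 CPM in high fat and 55.7 and 76.3 CPM in control mice. Proximal exceeded distal in all 5 mice with no overlap (log2 fold change 1.47, SE 0.14, adjusted p = 9.25e-05; 1.54 in high fat (adjusted p = 0.000227) and 1.36 in control mice (adjusted p = 0.00238)). Fbp1, an enzyme of gluconeogenesis, averaged 65.3 ± 8.41 CPM in proximal and 42.98 ± 9.98 CPM in distal cells (log2 fold change 0.63, SE 0.087, adjusted p = 0.000789). Mgam, maltase-glucoamylase (chromosome 6, 40628831 to 40769123), went the other way, at 344, 356 and 388 CPM in high fat and 614 and 395 CPM in control mice in proximal cells. Distal cells had 1060.0, 1095 and 937 CPM in high fat and 1578 and 1022 CPM in control mice (log2 fold change -1.45, SE 0.085, adjusted p = 3.37e-06). The ranges lay apart, and both diets were called. Sis, sucrase-isomaltase, a marker of enterocytes named after its values were seen, had a log2 fold change of 1.49 (adjusted p = 0.0111), which was -0.18 (adjusted p = 0.446) without the marked cells, of the opposite sign. Sis was among the genes used for marking, so its level without the marked cells falls by construction. Its adjusted p was 0.0508 without control mouse 1.

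Peptide and amino acid uptake was divided, with 4 of 20 genes higher and 6 lower, and 4 and 9 without the marked cells. High fat mice gave 4 higher and 3 lower genes and control mice 0 and 6. In the test over both diets, the lower genes numbered 3 without control mouse 1 or control mouse 2 and 4 without high fat mouse 3. Anpep, aminopeptidase N, averaged 81.4 ± 23.8 CPM in proximal and 29.9 ± 12.2 CPM in distal cells (log2 fold change 1.35, SE 0.25, adjusted p = 0.00445), and was called in high fat (adjusted p = 0.00307) and not in control mice (adjusted p = 0.134). It was at 2.02 (adjusted p = 2.26e-07) without the marked cells. Slc3a1 and Slc7a8, subunits of amino acid transporters, had log2 fold changes of 0.87 and 0.83 (adjusted p = 0.00217 and 0.00246). Slc1a5, a glutamine transporter, averaged 95.6 ± 33.3 CPM in proximal and 157 ± 53.8 CPM in distal cells (log2 fold change -0.72, SE 0.086, adjusted p = 0.000312), and Slc1a1, a glutamate transporter, averaged 49.4 ± 6.96 CPM in proximal and 78.6 ± 19.2 CPM in distal cells (log2 fold change -0.67, SE 0.087, adjusted p = 0.000523). Both were lower in each of the 5 mice and called in both diets. Mep1b, a meprin protease, was lower at -1.58 (adjusted p = 0.00212).

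Iron, calcium and folate uptake held 2 higher and 2 lower genes of 13. Fth1, the ferritin heavy chain that stores iron, averaged 1259 ± 515 CPM in proximal and 789 ± 233 CPM in distal cells (log2 fold change 0.63, SE 0.102, adjusted p = 0.0022), and Heph, the ferroxidase that passes iron to the blood, averaged 45.8 ± 8.84 CPM in proximal and 66.5 ± 21.6 CPM in distal cells (log2 fold change -0.51, SE 0.089, adjusted p = 0.00343). S100g, a calcium carrier, had a log2 fold change of 1.07 (adjusted p = 0.0456). The call was lost without any 1 of the 3 high fat mice or control mouse 1, with an adjusted p of up to 0.169. Slc39a4, a zinc importer, was at -0.36 (adjusted p = 0.0187), with an adjusted p of up to 0.0776 without high fat mouse 1, high fat mouse 3 or control mouse 1.

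Detoxifying enzymes were higher more often than lower, with 12 against 4 of 40 genes and a median of 0.32. High fat mice gave 13 higher and 2 lower genes and control mice 5 and 5. In unmarked cells 9 were higher and 9 lower of 39. With all stem-called cells and both diets, the lower genes numbered 2 without control mouse 1 or control mouse 2. Ephx2, an epoxide hydrolase, had 63.5, 48.3 and 43.6 CPM in high fat and 61.8 and 41.2 CPM in control mice in proximal cells. Distal cells had 20.04, 21.2 and 13.9 CPM in high fat and 17.8 and 13.4 CPM in control mice. No proximal sum fell into the distal range (log2 fold change 1.599, SE 0.11, adjusted p = 7.37e-06; 1.54 in high fat (adjusted p = 3.51e-05) and 1.68 in control mice (adjusted p = 0.000124)). Cyp2c65, a cytochrome P450, averaged 30.1 ± 9.79 CPM in proximal and 6.47 ± 2.93 CPM in distal cells (log2 fold change 2.02, SE 0.22, adjusted p = 0.000169), and the glutathione transferase Gstm3 averaged 37.4 ± 14.7 CPM in proximal and 14.05 ± 7.78 CPM in distal cells (log2 fold change 1.43, SE 0.15, adjusted p = 0.000134). Mgst2, a membrane-bound transferase, was lower at 35.5 ± 11.8 CPM in proximal and 71.1 ± 17.2 CPM in distal cells (log2 fold change -1.08, SE 0.18, adjusted p = 0.00281).

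**Figure D3:**
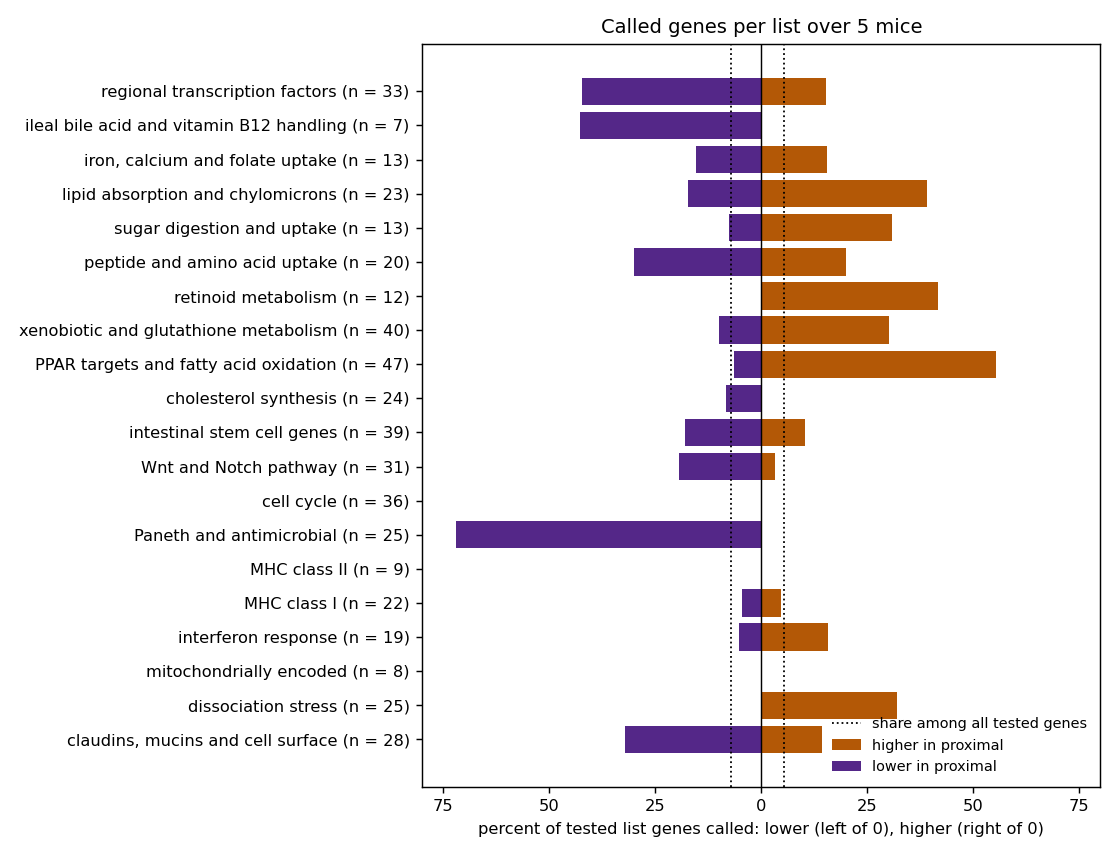
Percent of the tested genes of each list called higher (right of 0) or lower (left of 0) in proximal stem-called cells over 5 mice, with the number tested in brackets. Dotted lines mark the shares among all genes, 5.39% higher and 7.16% lower; fatty acid oxidation reaches farthest to the right and the Paneth and antimicrobial list farthest to the left.

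Genes of fatty acid oxidation formed the list with most higher members. Of 47 tested targets of PPAR receptors and oxidation genes, 26 were higher and 3 lower in proximal cells, with a median of 0.42. In high fat mice 27 were higher and 2 lower, and in control mice 3 and 2, and none was called for a difference between diets. Leaving out 1 mouse gave 18 to 27 higher and 2 or 3 lower genes, and leaving out the marked cells 23 and 3 of 46. Of the same list, 4 were higher and 2 lower in control mice without the marked cells.

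Acot1, which releases fatty acids from coenzyme A, had 264, 194 and 124 CPM in high fat and 24.3 and 15.7 CPM in control mice in proximal cells. Distal cells had 73.8, 33.8 and 28.8 CPM in high fat and 10.9 and 11.6 CPM in control mice. The change was called in high fat mice, at 2.11 (adjusted p = 3.17e-06), and missed the threshold in control mice, at 0.66 (adjusted p = 0.128). The difference between diets was 1.45 (SE 0.26, adjusted p = 0.0689), above the threshold, and 1.46 (adjusted p = 0.022) without the marked cells. Angptl4, a secreted inhibitor of lipoprotein lipase, averaged 33.4 ± 27.99 CPM in proximal and 6.92 ± 5.14 CPM in distal cells (log2 fold change 2.299, SE 0.297, adjusted p = 0.000508), with 2.65 in high fat (adjusted p = 9.14e-05) and 1.33 in control mice (adjusted p = 0.128). Hsd17b4, a peroxisomal oxidation enzyme, averaged 193 ± 35.8 CPM in proximal and 115 ± 18.6 CPM in distal cells (log2 fold change 0.73, SE 0.081, adjusted p = 0.000184) and was called in both diets. Pdk4, a kinase that holds back glucose oxidation, averaged 21.2 ± 21.8 CPM in proximal and 4.06 ± 5.099 CPM in distal cells and was listed at 0 in the distal sum of control mouse 2 (adjusted p = 8.02e-05).

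Mitochondrial entry and the first oxidation step differed by less. Acadl, which dehydrogenates long-chain fatty acids, averaged 157 ± 89.8 CPM in proximal and 89.2 ± 37.1 CPM in distal cells (log2 fold change 0.701, SE 0.15, adjusted p = 0.013), and its adjusted p was 0.0525 without high fat mouse 2. Cpt1a, the gate of mitochondrial fatty acid entry, averaged 366 ± 172 CPM in proximal and 258 ± 119 CPM in distal cells (log2 fold change 0.45, SE 0.12, adjusted p = 0.0271), and its call was lost without high fat mouse 2 or 3, with an adjusted p of up to 0.103. Acadl, Cpt1a, Acot1 and Angptl4 were chosen after their values were seen. Scd2, which makes unsaturated fatty acids, ran the other way, at 21.8, 13.2 and 23.1 CPM in high fat and 120.03 and 86.6 CPM in control mice in proximal cells. Distal cells had 147, 135 and 247 CPM in high fat and 550.4 and 571 CPM in control mice. It was lower in proximal cells of all 5 mice, with the high fat mice below the control mice in each region (log2 fold change -2.84, SE 0.17, adjusted p = 3.37e-06; -3.21 in high fat (adjusted p = 2.39e-07) and -2.46 in control mice (adjusted p = 8.46e-06)). Scd1, its relative, averaged 1.07 ± 1.7005 CPM in proximal and 7.93 ± 7.53 CPM in distal cells and was listed at 0 in 1 proximal sum (adjusted p = 0.00226). Scd1 passed the filter on low counts through its distal level and had to differ in this direction. Acsf2, an acyl-CoA synthetase, was at -0.86 (adjusted p = 0.0127; 0.0844 without control mouse 2). In T and B cells Scd2 stood at 123 CPM in proximal and 185 CPM in distal cells, and whether this was their own or carried-over RNA was not tested. In cholesterol synthesis 2 of 24 genes were lower and none higher, where all genes gave 7.16% lower and 5.39% higher. Among the lower genes of this list was the sterol carrier Stard4, at -0.39 (adjusted p = 0.0222). Its call was lost, with an adjusted p of up to 0.0914, without high fat mouse 1 or 2 or control mouse 1 or 2.

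**Figure D4:**
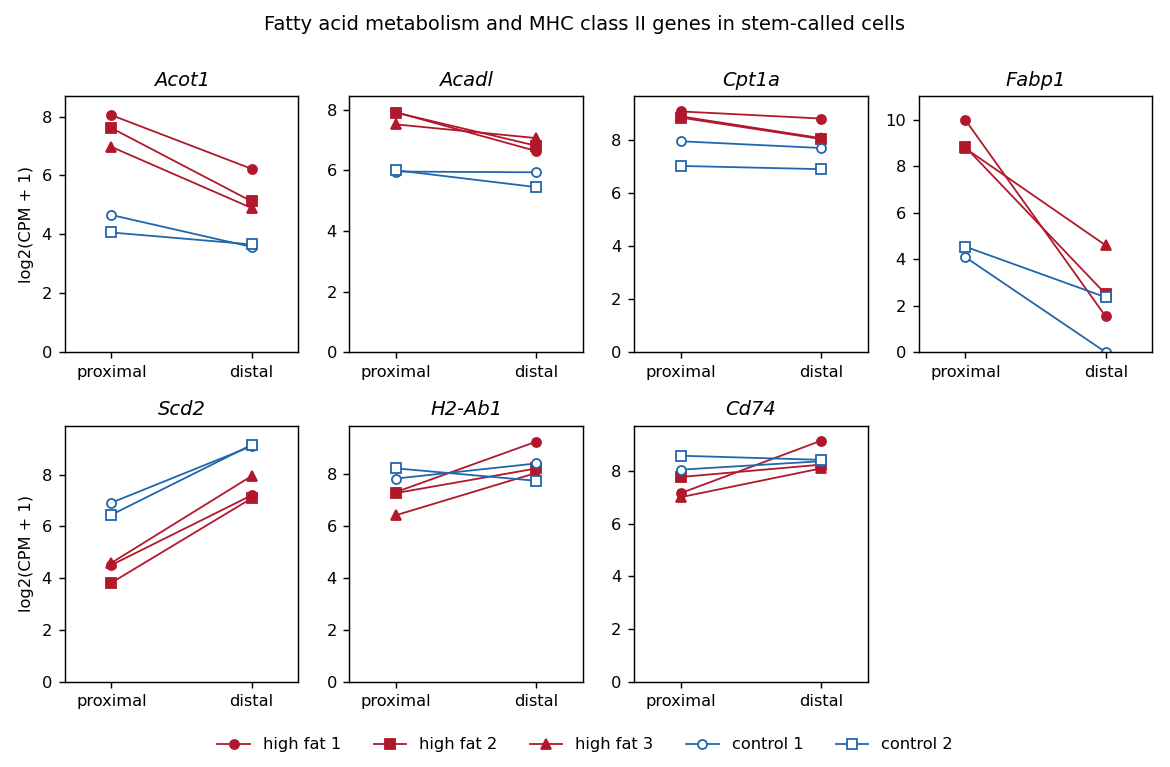
Level of 5 genes of fatty acid metabolism and 2 genes of MHC class II in stem-called cells as log2 of CPM plus 1, by region, with 1 line for each of the 5 mice (filled red, high fat; open blue, control). Scd2 is regional within each diet and differs in level between diets; H2-Ab1 and Cd74 are lower in proximal cells of the 3 high fat mice and change sign between the 2 control mice.

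Stem cell genes were mostly not called. Of 39 tested genes 4 were higher and 7 lower, with a median of -0.05. High fat mice gave 3 higher and 5 lower genes and control mice 5 and 1. In the test over both diets, the lower genes numbered 2 without high fat mouse 1 or 2 and 3 without control mouse 2. Without the marked cells 6 were higher and 8 lower over 5 mice. Besides Gkn3, Esrrg, an orphan nuclear receptor, averaged 49.7 ± 15.4 CPM in proximal and 20.6 ± 6.44 CPM in distal cells (log2 fold change 1.28, SE 0.13, adjusted p = 0.00011), and Cyp2e1, a cytochrome P450 on this list, averaged 38.8 ± 13.1 CPM in proximal and 17.02 ± 6.49 CPM in distal cells (log2 fold change 1.23, SE 0.15, adjusted p = 0.000424). Both were called in each diet. The lower genes other than Bex1 differed by less. Fgfr4, a fibroblast growth factor receptor, was at -0.76 (adjusted p = 0.00474), and Pdgfa, a growth factor, was at -0.43 (adjusted p = 0.0207). Pdgfa was not called, with an adjusted p of up to 0.0856, without high fat mouse 1 or 2 or control mouse 2. Cell cycle genes showed no call among 36 tested in edgeR, where 7 were higher and none was lower with unadjusted p below 0.05, none in DESeq2, and 1 higher in limma. Of all genes, 11.9% were higher and 12.7% lower with unadjusted p below 0.05. In control mice 3 were higher, and 8 without the marked cells, where all genes gave 186 of 11113 and 263 of 10781. Cenpa, a centromere histone, was at 0.43 (adjusted p = 0.069), and Rrm2, a subunit of ribonucleotide reductase, at 0.34 (adjusted p = 0.0943).

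In the Wnt and Notch pathways 1 of 31 genes was higher and 6 were lower. Wnt3, the Wnt ligand of Paneth cells (chromosome 11, 103774150 to 103817957), had 7.25, 1.73 and 4.06 CPM in high fat and 3.599 and 1.39 CPM in control mice in proximal cells. Distal cells had 26.2, 23.9 and 49.6 CPM in high fat and 16.6 and 16.5 CPM in control mice. The ranges did not overlap (log2 fold change -3.01, SE 0.28, adjusted p = 6.36e-05; -3.09 in high fat (adjusted p = 0.000189) and -2.92 in control mice (adjusted p = 0.00141)), and the value without the marked cells was -2.85 (adjusted p = 9.40e-05). Ccnd1, cyclin D1, a target of Wnt signalling, averaged 217 ± 48.8 CPM in proximal and 365 ± 78.8 CPM in distal cells (log2 fold change -0.76, SE 0.086, adjusted p = 0.000212) and was lower in each mouse and called in both diets. Atoh1, the factor that starts secretory fate, averaged 8.52 ± 3.58 CPM in proximal and 33.2 ± 21.6 CPM in distal cells (log2 fold change -2.02, SE 0.34, adjusted p = 0.00293), and without the marked cells it was at -0.72 (adjusted p = 0.408) and not called. Goblet cell markers were lower in proximal cells for 5 of 10 genes, and their part in Atoh1 and in the guanylins described later was not tested. Sfrp5, a secreted Wnt inhibitor, was higher, at 85.6 ± 30.1 CPM in proximal and 47.5 ± 30.9 CPM in distal cells (log2 fold change 0.98, SE 0.21, adjusted p = 0.0119).

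Paneth cell and antimicrobial genes were mostly lower in proximal cells. Of 25 tested genes 18 were lower and none higher, with a median of -3.15, and the median was the same over the 19 of them without a sum at 0. The counts were 20 lower in high fat and 11 lower in control mice. Paneth cell markers moved with region in the same cells, and marked cells reached 12.8% of the distal library of high fat mouse 3. Without cells marked as Paneth, enterocyte, goblet, tuft, enteroendocrine or T and B cells, 10 of 20 list genes were lower and the median was -1.01. The marking used some of these genes, so their levels fall by construction. The part of Paneth cells in what remained was not tested.

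Single genes differed in what remained without the marked cells. Lyz1, lysozyme, had 61.6, 89.3 and 51.3 CPM in high fat and 439 and 110.0 CPM in control mice in proximal cells. Distal cells had 804, 3276 and 4659 CPM in high fat and 631 and 628 CPM in control mice, and its log2 fold change was -3.702 (adjusted p = 0.00881) with all cells and -0.99 (adjusted p = 0.0261) without the marked ones. It was not called when only cells marked as Paneth, enterocyte or T and B cells were left out. Mmp7, the protease that activates defensins, averaged 21.96 ± 17.6 CPM in proximal and 506 ± 424 CPM in distal cells, and was at -4.33 (adjusted p = 0.000225) and -2.57 (adjusted p = 1.17e-06) without them. Defa24, an alpha-defensin, averaged 175 ± 153 CPM in proximal and 2082 ± 2002 CPM in distal cells, at -3.43 (adjusted p = 0.00831) and -1.03 (adjusted p = 0.0574) without them. Alpha-defensin genes are near-identical copies of each other, so counts may be split between them. Defa22 was listed at 0 in 4 of 5 proximal sums and averaged 0.0585 ± 0.131 CPM in proximal and 171 ± 178 CPM in distal cells (adjusted p = 4.13e-08). With all cells it passed the filter on low counts through its distal level and had to differ in this direction. It did not pass that filter without the marked cells. Mptx2, a mucosal pentraxin, averaged 6.44 ± 9.57 CPM in proximal and 163 ± 119 CPM in distal cells and was at 0 in 2 proximal sums (adjusted p = 0.000257).

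Other genes of the list were called in both sets of cells. Duox2, an oxidase that makes hydrogen peroxide at the apical surface (chromosome 2, 122279247 to 122298449), had 6.799, 4.53 and 3.45 CPM in high fat and 8.71 and 4.24 CPM in control mice in proximal cells. Distal cells had 79.3, 67.6 and 118 CPM in high fat and 55.7 and 44.1 CPM in control mice. No sums overlapped (log2 fold change -3.62, SE 0.25, adjusted p = 1.04e-05; -4.27 in high fat (adjusted p = 8.96e-07) and -3.04 in control mice (adjusted p = 2.69e-05)), and the value without the marked cells was -3.47 (adjusted p = 8.89e-08). Nos2, the inducible nitric oxide synthase, averaged 0.505 ± 0.618 CPM in proximal and 14.8 ± 5.42 CPM in distal cells and was listed at 0 in 2 proximal sums (adjusted p = 0.000123). It passed the filter on low counts through its distal level and had to differ in this direction. Reg3b, an antimicrobial lectin, had 37.6, 4.32 and 21.5 CPM in high fat and 47.2 and 57.6 CPM in control mice in proximal cells. Distal cells had 147, 113 and 1984 CPM in high fat and 406 and 168 CPM in control mice. High fat mouse 3 stood far above the other distal sums (log2 fold change -3.35, SE 0.62, adjusted p = 0.00516), and the value without the marked cells was -4.11 (adjusted p = 0.000343). Its relative Reg3g was at -3.01 (adjusted p = 0.00885) and -3.53 (adjusted p = 0.000243). Lyz1, Mmp7, Defa24, Reg3b and Reg3g were chosen after their values were seen.

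**Figure D5:**
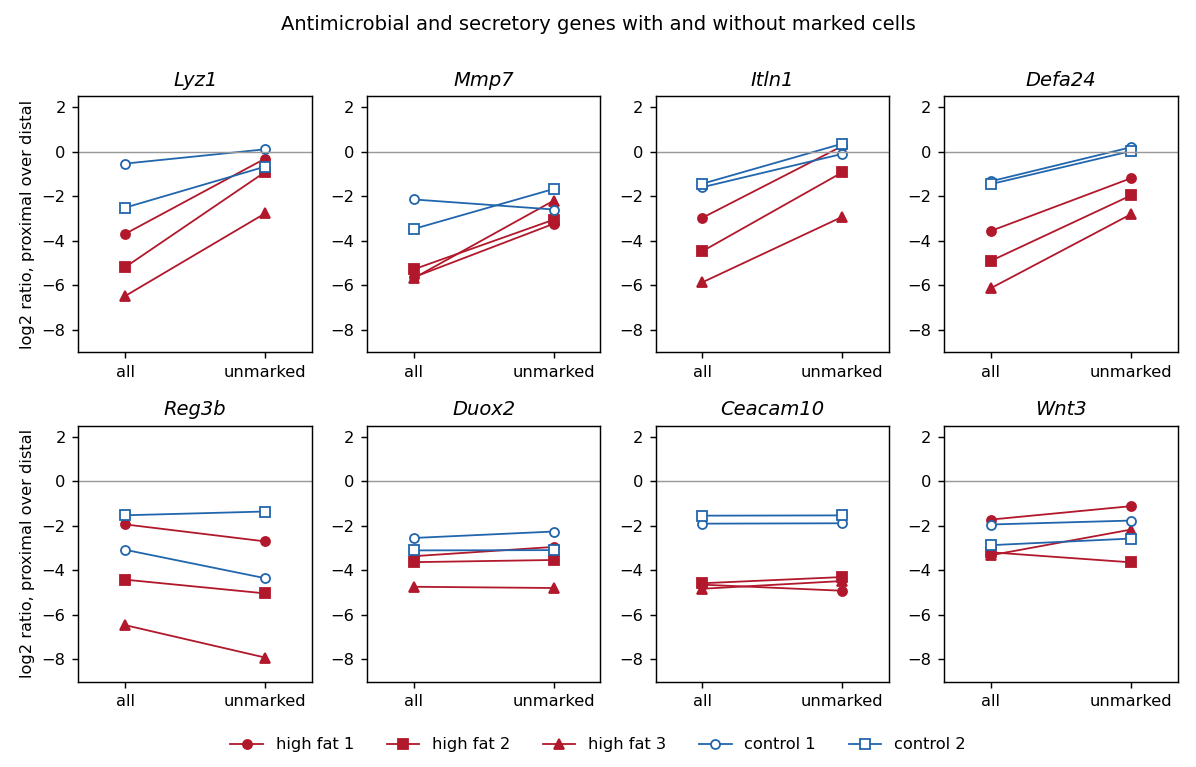
Log2 ratio of proximal over distal level (1 CPM added to both) of 8 antimicrobial and secretory genes in each of the 5 mice, with all stem-called cells and with cells marked as 1 of 6 other types left out (filled red, high fat; open blue, control). Lyz1, Itln1 and Defa24 move towards 0, whereas Reg3b, Duox2, Ceacam10 and Wnt3 stay below 0 in all mice.

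Genes of MHC class II, which present peptides to T cells, were not called over 5 mice: none of 9 passed in edgeR or in limma, and 3 were lower in DESeq2. With unadjusted p below 0.05, edgeR gave 1 higher and 8 lower, against 11.9% and 12.7% of all genes. In high fat mice 7 of 9 were lower and none higher (6 without high fat mouse 1, and 7 without the marked cells), in control mice none passed, and no gene was called for the difference between diets. H2-Ab1, a class II beta chain, had 156, 152 and 83.6 CPM in high fat and 224 and 294 CPM in control mice in proximal cells. Distal cells had 601, 293 and 260.5 CPM in high fat and 335 and 211 CPM in control mice. All 3 high fat mice were lower in proximal cells and the 2 control mice had opposite signs, giving -1.52 in high fat (adjusted p = 0.000551) and -0.038 in control mice (adjusted p = 0.988) and a difference of -1.48 (SE 0.32, adjusted p = 0.147). Cd74, the invariant chain, was at -1.19 in high fat (adjusted p = 0.00438) and -0.077 in control mice (adjusted p = 0.967). Without the marked cells 6 of 9 genes were lower over 5 mice. With all stem-called cells and both diets, 7 of 9 were lower when control mouse 2 was left out. Distal T and B cells held H2-Ab1 at 1761 CPM and proximal ones at 197 CPM. Markers of myeloid cells summed to 12.4 to 23.6 CPM in proximal and 29.1 to 48.2 CPM in distal sums (p = 0.0625, exact). The part of immune cells in these levels was not tested.

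In MHC class I, 1 of 22 genes was higher and 1 lower, near the shares of all genes, 5.39% and 7.16%. The called genes of this list were Psmb9, an immunoproteasome subunit, at 0.53 (adjusted p = 0.0444), and H2-T22, a nonclassical class I chain, at -0.61 (adjusted p = 0.0249). Neither was called without the marked cells. Both calls were also lost with certain single mice left out, with an adjusted p of up to 0.154 for Psmb9 (without high fat mouse 2, control mouse 1 or control mouse 2) and 0.0908 for H2-T22 (without high fat mouse 2, high fat mouse 3 or control mouse 2). Of 19 interferon response genes 3 were higher and 1 lower. Ly6e, a membrane-anchored protein of the Ly6 family that interferon induces (chromosome 15, 74955051 to 74959905), had 427, 567 and 473 CPM in high fat and 258 and 269.9 CPM in control mice in proximal cells. Distal cells had 93.05, 124 and 144 CPM in high fat and 74.04 and 94.7 CPM in control mice. The lowest proximal sum exceeded the highest distal one (log2 fold change 1.87, SE 0.11, adjusted p = 3.64e-06; 2.02 in high fat (adjusted p = 1.50e-06) and 1.64 in control mice (adjusted p = 8.46e-05)). T and B cells, which express it, held 799 CPM in proximal and 1145 CPM in distal cells. Ifi27 was at 0.795 and Ifit2 at 1.22 (adjusted p = 0.00349 and 0.00533), and Irgm1, an interferon-induced GTPase, was at -0.46 (adjusted p = 0.0346; up to 0.089 without high fat mouse 1, high fat mouse 2 or control mouse 1).

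Of 25 tested genes that respond to cell dissociation, 8 were higher and none lower in proximal cells, with a median of 0.31. The higher genes numbered 5 without control mouse 1 and 10 without control mouse 2. In high fat mice 7 were higher and in control mice none, and without the marked cells 16 were higher. Egr1, an immediate early factor, averaged 516 ± 152 CPM in proximal and 343 ± 112 CPM in distal cells (log2 fold change 0.62, SE 0.11, adjusted p = 0.00359), Jun averaged 719.9 ± 336 CPM in proximal and 469.8 ± 186 CPM in distal cells (log2 fold change 0.54, SE 0.104, adjusted p = 0.00597) and the chaperone Dnajb1 averaged 112 ± 34.9 CPM in proximal and 76.9 ± 32.5 CPM in distal cells (log2 fold change 0.55, SE 0.102, adjusted p = 0.00485). Each was higher in proximal cells of all 5 mice, though the ranges overlapped. Of 8 mitochondrially encoded genes none was called in edgeR, DESeq2 or limma, and 1 was higher with unadjusted p below 0.05. Their lowest p values belonged to mt-Nd1, at 0.25 (adjusted p = 0.179), and mt-Nd2, at 0.27 (adjusted p = 0.258). The median mitochondrial share of counts per cell was 13.9% to 19.2% in proximal and 11.9% to 22.3% in distal libraries (p = 0.9375, exact). The part of tissue handling in these genes was not tested.

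Surface and ion transport genes were lower more often than higher, with 9 against 4 of 28, where 2 were higher without control mouse 1. Car8, a protein of the carbonic anhydrase family, had 21.8, 30.9 and 27.4 CPM in high fat and 30.8 and 24.004 CPM in control mice in proximal cells. Distal cells had 74.1, 95.5 and 150.4 CPM in high fat and 88.4 and 89.97 CPM in control mice. The ranges lay apart in both diets (log2 fold change -1.88, SE 0.13, adjusted p = 9.30e-06; -2.0 in high fat (adjusted p = 1.28e-05) and -1.74 in control mice (adjusted p = 0.000168)). Guca2a, guanylin, a peptide that drives fluid secretion, averaged 28.8 ± 17.7 CPM in proximal and 294 ± 159 CPM in distal cells (log2 fold change -3.46, SE 0.44, adjusted p = 0.000465), with -3.13 (adjusted p = 9.17e-08) without the marked cells, and its relative Guca2b, uroguanylin, averaged 15.9 ± 3.27 CPM in proximal and 76.6 ± 62.8 CPM in distal cells (log2 fold change -2.13, SE 0.27, adjusted p = 0.000493). The higher genes were anion exchangers and a carbonic anhydrase among others. Car2, a carbonic anhydrase, was at 1.85 (adjusted p = 0.00176). Slc26a6 and Slc26a3, chloride and bicarbonate exchangers, were at 1.47 and 0.695 (adjusted p = 0.017 and 0.0172), and without the marked cells at 0.67 (adjusted p = 0.183) and 0.35 (adjusted p = 0.133). The call of Slc26a3 was also lost without control mouse 1 (adjusted p = 0.0572).

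The regional difference itself differed between diets for 21 genes, 5 (0.045%) with a log2 fold change that was more positive in high fat mice and 16 (0.144%) with one that was more negative. Of these, 10 were on the Paneth and antimicrobial list. The summed Paneth cell markers were highest in the distal sums of high fat mice 2 and 3, at 10874 and 17839.7 CPM, and lowest in that of high fat mouse 1, at 1923 CPM, against 3422 and 2489.8 CPM in the control mice. Ceacam10, an adhesion molecule of the CEA family (chromosome 7, 24777206 to 24784657), had the smallest p. It stood at 11.3, 7.77 and 7.103 CPM in high fat and 68.4 and 26.9 CPM in control mice in proximal cells. Distal cells had 307, 209 and 229 CPM in high fat and 258 and 80.2 CPM in control mice. Proximal cells of the control mice held more than those of the high fat mice, and the log2 fold change was -4.85 in high fat and -1.75 in control mice, a difference of -3.099 (SE 0.21, adjusted p = 3.90e-05). Without the marked cells the difference was -2.94 (adjusted p = 1.76e-07). AY761184 was at -6.098 in high fat and -0.28 in control mice, and Gm15284 at -6.21 in high fat and -1.07 in control mice, with differences of -5.82 (SE 0.49, adjusted p = 0.000187) and -5.13 (SE 0.496, adjusted p = 0.000542). RefSeq lists Gm15284 as a synonym of Defa30 and Gm14851 of Defa38, both alpha-defensins. Gm14851 had 1 sum at 0, in proximal cells of high fat mouse 1, and its adjusted p for the difference was 0.000524. Without the marked cells the differences were -2.61 (adjusted p = 0.0578) for AY761184 and -1.95 (adjusted p = 0.0578) for Gm15284, and neither was called.

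Itln1, an intelectin of Paneth and goblet cells, and Clps, the colipase, were also lower in proximal cells by more in high fat mice. Itln1 was at -4.62 in high fat and -1.51 in control mice, a difference of -3.11 (SE 0.54, adjusted p = 0.0482), or -1.68 (adjusted p = 0.319) without the marked cells. Clps was at -5.46 in high fat and -1.68 in control mice, a difference of -3.78 (SE 0.602, adjusted p = 0.0332). Itln1 was chosen after its values were seen, as were Mmp7, with a difference of -2.77 (SE 0.35, adjusted p = 0.00808), or -0.57 (adjusted p = 1) without the marked cells, and the chemokine gene Ccl6, at -1.63 (SE 0.28, adjusted p = 0.0482). Alpi, the intestinal alkaline phosphatase of enterocytes, was 1 of the 5 genes of the other direction. It had 51.7, 103 and 50.5 CPM in high fat and 13.8 and 21.004 CPM in control mice in proximal cells. Distal cells had 2.53, 1.99 and 4.46 CPM in high fat and 4.02 and 12.2 CPM in control mice. Its fold changes were 4.06 in high fat (adjusted p = 2.44e-06) and 0.99 in control mice (adjusted p = 0.0951), and their difference was 3.06 (SE 0.43, adjusted p = 0.0123), or 2.69 (adjusted p = 0.0578) without the marked cells. Alpi, like Mmp7, was among the genes used for marking, so its level without the marked cells falls by construction. Gsta4, a glutathione transferase, was lower in proximal cells of control mice, at -2.47 (adjusted p = 7.13e-05), and at -0.46 (adjusted p = 0.278) in high fat mice, a difference of 2.01 (SE 0.32, adjusted p = 0.0332). Over 5 mice its adjusted p reached 0.0947 without control mouse 1 or control mouse 2. Akr1c19, an aldo-keto reductase, and Ces1f, a carboxylesterase, were called higher in high fat mice, at 1.65 and 2.55, and not called in control mice, at -0.41 and -1.11. Gm10800, a predicted gene, gave a difference of 1.49 (SE 0.201, adjusted p = 0.0096).

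On simulated counts the test of this difference recovered 49.5% of 2-fold and 87.6% of 4-fold changes. It made 27 false calls there, so some of the 21 genes may be false calls. The number of genes with such a difference moved with the cells and mice used. Without cells marked as Paneth, enterocyte or T and B cells, 1 gene was called, Ceacam10. Without all 6 marked types 6 genes were, 3 in each direction. Without high fat mouse 3 there were 133 and 79, and without high fat mouse 2, 0 and 10. Of the 21, Ceacam10 alone was called in each of the runs that left out 1 mouse or either set of marked cells. Without the mouse as a block none was called.

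The regional difference was next set against that in the 10627 cells of the same libraries without the stem call. Those cells gave 1694 higher (13.0%) and 1911 lower (14.7%) genes of 12999 (27.7%), with more cells behind each sum. Of the 599 genes higher in proximal stem-called cells, 509 were also called higher there, and 591 had the same sign. Of the 796 lower ones 792 were tested there, 667 were also called lower, and 781 had the same sign. The test of the difference between both populations called 157 of 12505 genes (1.26%), 91 with a more positive and 66 with a more negative log2 fold change in stem-called cells. The sign alone does not tell whether the regional difference was stronger or weaker there. Leaving out 1 mouse gave 25 to 60 and 17 to 56, with the lowest counts, 25 and 17, without high fat mouse 2. Onecut2 gave 0.22 (SE 0.16, adjusted p = 0.641) and Gata4 0.24 (SE 0.12, adjusted p = 0.399), and neither was called. Gkn3 had a smaller fold change in stem-called cells, by -1.83 (SE 0.41, adjusted p = 0.0437), with 49.8 ± 23.3 CPM in proximal and 1.29 ± 0.856 CPM in distal cells without the call (SD, n = 5 each). Pdx1 was called in the other direction (adjusted p = 0.016), with 29.0 ± 6.15 CPM in proximal and 1.81 ± 0.792 CPM in distal cells without the call.

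The 4 genes of smallest p in each direction follow. Prss23, a serine protease, averaged 38.01 ± 18.5 CPM in proximal and 82.8 ± 29.1 CPM in distal cells with the call and 12.3 ± 7.24 CPM in proximal and 79.8 ± 23.9 CPM in distal cells without it, a difference of 1.73 (SE 0.13, adjusted p = 1.69e-05). Mep1a, a meprin protease, had a log2 fold change of -0.77 over 5 mice (adjusted p = 0.0154; up to 0.0747 without control mouse 1 or 2) and differed by 1.64 (SE 0.18, adjusted p = 0.000376) from cells without the call. Tmem117, a membrane protein, differed by 1.03 (SE 0.11, adjusted p = 0.000376) and Vps13c, a lipid transfer protein, by 0.89 (SE 0.104, adjusted p = 0.000931). In the other direction, 2210407C18Rik averaged 349.9 ± 43.3 CPM in proximal and 242 ± 95.1 CPM in distal cells with the call and 260.4 ± 26.7 CPM in proximal and 55.6 ± 23.95 CPM in distal cells without it, a difference of -1.68 (SE 0.17, adjusted p = 0.000376). Over 5 mice its adjusted p was 0.0386, and up to 0.128 without high fat mouse 3, control mouse 1 or control mouse 2. Casp6, a caspase, was called higher in proximal stem-called cells (log2 fold change 1.203, SE 0.092, adjusted p = 2.11e-05) and differed by -0.76 (SE 0.095, adjusted p = 0.00151), and Ckb, brain-type creatine kinase, was called higher (log2 fold change 1.49, SE 0.098, adjusted p = 7.37e-06) and differed by -0.68 (SE 0.089, adjusted p = 0.00197). Abcb1a, lower in proximal cells of both populations, differed by -0.91 (SE 0.097, adjusted p = 0.000376). The populations differ in cell types as well as in the call, and these cannot be told apart.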

How the data were processed

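Single-cell RNA sequencing was made from the proximal and distal small intestine and colon of 5 mice, and colon was not used here. The deposited table holds raw UMI counts per gene and cell. They were whole numbers whose sums equalled the totals in the authors' cell table in all 18919 cells, and the genome build was mm10 per the submitters' processing notes. The aligner, the counting tool and the annotation are not given in the sources used here. The authors had filtered cells, and few genes were seen in under 5 cells of a library (94, 248, 682 and 1839 gene entries in 1, 2, 3 and 4 cells, against 5035 in 5), so a 0 was taken to set no limit. Detection of low genes is limited by counting error in 207 to 617 cells per sum.

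Counts of stem-called cells were summed per mouse and region. Tests used edgeR 4.0.16 (quasi-likelihood F test, TMM, filterByExpr by region, mouse as block) in R 4.3.3, with DESeq2 1.42.0 and limma 3.58.1 as alternatives, and tables used Python 3.11.15. A gene that was very low in 1 region could pass that filter only through the other region, which set the direction of its difference. Both sums of a block come from the same animal by the labels, and their deviations from the regional means correlated at 0.174 to 0.671. Levels are TMM-normalised CPM, and per-mouse ratios had 1 CPM added. Cells with at least 0.5% of their UMIs from markers of another type were marked. Methods were tested on simulated counts with known changes. The test over 5 mice recovered 85.9% of 2-fold changes and made 15 false calls. Those in control and high fat mice recovered 66.7% and 73.7%, with 21 and 24 false calls. That of the difference between diets recovered 49.5%, with 27 false calls, and that against not-called cells 76.0%, with 10. Gene coordinates are those of GENCODE vM21 (GRCm38, the same assembly as mm10), and 10576 of 11113 tested genes were located.

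Genes were named by rule: the markers Onecut2, Gkn3 and Fabp6, the 8 largest changes in each direction at 20 CPM or more, up to 3 called genes per direction and list, and the smallest p values for the diet and population tests. Exceptions are stated, and some genes under the rule are not reported here. The members, lists and rule were chosen with earlier results of these data known. Nothing says whether the mice of 1 diet shared a cage, so p-values measure the spread between these animals. Alternatives were no block, other size factors and tests, other filters on low counts, cells thinned to 3000 UMIs before the call, a call at 2 UMIs, marked cells left out, a mitochondrial share of at most 20%, and each mouse left out. The set that leaves out cells of 6 marked types was chosen after seeing the data.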

Additional observations from a re-analysis of the deposited data

Results flagged for a closer look

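In 9 genes reported here the regional difference itself differed between high fat and control mice and the gene fell under the naming rule. Values are log2 fold changes of high fat minus control mice, from edgeR. They were -3.10 for Ceacam10, -5.82 for AY761184 and -5.13 for Gm15284. For Gm14851, the fitted value of -5.77 rests in part on a sum at 0 and is no bound. The positive ones were 1.49 for Gm10800, 2.01 for Gsta4, 2.05 for Akr1c19, 3.06 for Alpi and 3.66 for Ces1f.

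Among the 5 mice, 1 sample stood apart from the other 4, by the gap to its neighbour over the range, in 5 cases. The limit for that ratio was 0.71 and the test is set so that chance passes it in about 1 of 20 groups. How many of the 5 cases are due to chance was not tested. Enterocyte markers summed to 1439 CPM in distal cells of control mouse 2, above 852.1 to 964.0 CPM in the other distal samples. Enteroendocrine markers summed to 955.5 CPM in distal cells of high fat mouse 3, above 193.5 to 342.1 CPM. The within-mouse log2 ratio of proximal over distal was -2.67 for Rdh1 in high fat mouse 3, nearer to 0 than in the others. It was 1.08 for Rrm2 in control mouse 1, above the others, and -0.26 for mt-Nd1 in high fat mouse 2, below the others.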

How the results depend on the processing

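Of 126 named genes called over 5 mice, 69 were called under every alternative and 57 were lost under at least 1. Without the replicate block, 191 genes were higher and 366 lower over 5 mice, 128 and 210 in high fat mice, 48 and 102 in control mice, and 0 and 0 for the difference between diets. With cells thinned to 3000 UMIs before the call, which left 7258 genes to test, the counts were 169 and 191, 102 and 109, 40 and 61, and 1 and 5 in the same order. Without a filter on low counts (16389 genes), they were 660 and 855 in high fat mice, 377 and 638 in control mice and 81 and 81 for the difference. For that difference DESeq2 called 9 higher genes, RLE size factors 3, the set without Paneth, enterocyte, T and B marked cells 0 higher and 1 lower, and the set without 6 marked types 3 and 3. Leaving out 1 mouse gave 407 to 505 higher and 583 to 780 lower genes over 5 mice, 249 to 579 and 332 to 535 in high fat mice, 54 to 379 and 93 to 635 in control mice, 0 to 133 and 10 to 79 for the difference, and 25 to 60 and 17 to 56 for stem-called minus not-called cells.

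The sign changed for these genes, among them markers used for marking cells. With marked cells left out (3 or 6 types), Ces1f was at -0.33 and -0.41, Sis at -0.24 and -0.18, and in high fat mice at -0.26 and -0.08701. AY761184 was at 0.02454 with 3 types left out. In control mice Itln1 was at 0.14 and 0.24, Defa17 at 0.05349 and 0.06307, and Defa24 at 0.11 and 0.10. Gm10800 was at 0.23 after thinning, and Epcam ran from -0.07656 to 0.03087 as single mice were left out. Olfm4 was at -0.001023 without the block, -0.002491 in limma, -0.002956 with a stricter filter, -0.07576 after thinning, -0.03579 at 2 UMIs, -0.0151 without 6 marked types, and from -0.07023 to 0.1817 as single mice were left out. The causes were not tested.

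With 2 control mice, control results rest on the spread shared with the high fat mice. A gene missed there is not shown to be unchanged.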
